A study of Mus musculus with 12 samples.

Results

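Growth signals that act on the compact wall of the ventricle were measured in mouse hearts at the E15.5 stage of gestation. The genes were Fgf9, Fgf16, Nrg1 and Igf1, which encode secreted ligands, Fgfr1, Fgfr2, Erbb2, Erbb4 and Igf1r, which encode receptors, and Mycn, which encodes a transcription factor. They were chosen by name, as every probe whose platform annotation gives one of these 10 symbols, and 22 of 45267 probes met that rule. Of these, 8 probes belonged to the 4 ligands, 13 to the 5 receptors and 1 to Mycn.

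The hearts came from a gene-trap line of the dopa decarboxylase gene, DdcGt(OST129277)Lex, on a mixed genetic background, and each heart was hybridized to 1 Illumina WG-6 array. Ddc encodes the enzyme for the last step of dopamine and serotonin synthesis, and in the embryonic heart its exon 1a transcript is read from the paternal allele. The groups were 1 heart with the mutation on both alleles (labelled KO, Ddc-/-, here DdcΔΔ), 4 hearts with it on the paternal allele (PatKO, Ddc+/-, DdcPATΔ), 4 with it on the maternal allele (MatKO, Ddc-/+, DdcMATΔ) and 3 wild-type hearts (WT, DdcWT). The mutation was carried by the whole embryo, so that effects outside the heart could also reach it, and homozygotes of the line die before birth. The methods state that the hearts were run on 2 array chips of 6 lanes, but which hearts shared a chip could not be told from the sources used here, nor could the litters, and the labels give no sex. Xist, the RNA of the inactive X chromosome, was 4.75, 5.13 and 5.99 in DdcPATΔ replicates 1 and 3 and DdcMATΔ replicate 3, and 12.57 or more in the other 9 hearts, so that it was uneven over the groups.

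The compact layer is the dense outer part of the ventricular wall, and it thickens in midgestation as its cardiomyocytes divide. Fibroblast growth factors such as FGF9 come from the epicardium and endocardium and act on cardiomyocytes through FGFR1 and FGFR2. Neuregulin 1 is released by the endocardium and binds ERBB4, which pairs with ERBB2, a receptor with no ligand of its own. Insulin-like growth factors, which the epicardium also releases, signal through IGF1R, and N-MYC, the product of Mycn, is needed in the myocardium for the wall to grow.

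To show where the regulatory sequence of 2 of these genes lies, the 300 bases around the annotated start (250 before it and 50 after it) are printed below for Fgfr2, the member with the greatest distance between the DdcPATΔ and DdcMATΔ hearts among probes with a clear signal, and for Fgf9, the ligand with the greatest distance between DdcPATΔ and DdcWT among such probes. Both come from RefSeq (GRCm38.p6), which gave such a window for 7 of the 10 genes. Fgfr2 is at chr7:130266759-130267058 on the minus strand and Fgf9 at chr14:58072436-58072735 on the plus strand. Capitals mark CACGTG, the E-box that MYC family dimers bind, and TGACGT, the core of the cyclic AMP response element.
Fgfr2: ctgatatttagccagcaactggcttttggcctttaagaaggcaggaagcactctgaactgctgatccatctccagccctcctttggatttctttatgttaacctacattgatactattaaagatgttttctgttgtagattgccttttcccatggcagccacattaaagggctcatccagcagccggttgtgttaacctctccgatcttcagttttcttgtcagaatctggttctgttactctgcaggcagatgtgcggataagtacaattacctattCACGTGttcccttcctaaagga
Fgf9: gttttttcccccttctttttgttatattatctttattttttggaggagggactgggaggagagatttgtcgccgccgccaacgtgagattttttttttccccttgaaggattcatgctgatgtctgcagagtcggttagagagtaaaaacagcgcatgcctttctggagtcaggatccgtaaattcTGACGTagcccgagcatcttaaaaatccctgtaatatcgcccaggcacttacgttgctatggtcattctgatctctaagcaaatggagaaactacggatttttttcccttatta
Searched on both strands, CACGTG was found in 1 of the 7 windows, that of Fgfr2, and in 7.15% of the 32851 windows of all genes. TGACGT was found in 1 of the 7, that of Fgf9, and in 7.51% of all windows. The 2 motifs do not overlap each other in these windows, and a match is a description of the letters only.

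The genotype labels held for Ddc itself. Its probe ILMN_1229396 lay between 4.86 and 6.34 in the 5 DdcΔΔ and DdcPATΔ hearts, against 10.45 to 12.58 in the 7 DdcMATΔ and DdcWT hearts, on the log2 scale of the deposited signals, and its other 2 probes also separated these hearts. Whether any of these probes falls in the mutated part of the gene could not be told from the sources used here. Cardiomyocyte markers were high in every heart, with a mean of 11 measured markers between 14.27 and 14.38. Markers of liver cells were uneven, and their mean was 10.20 in the DdcΔΔ heart, 5.76 to 9.66 in DdcPATΔ, 5.81 to 8.37 in DdcMATΔ and 5.82 to 6.35 in DdcWT hearts. Neutrophil markers had a mean of 8.92 in the DdcΔΔ heart, 7.46 to 9.50 in DdcPATΔ, 6.43 to 7.72 in DdcMATΔ and 5.90 to 7.93 in DdcWT hearts. The alpha-fetoprotein gene Afp ranged from 4.88 to 12.62 over the hearts, whereas the albumin probe stayed between 4.78 and 5.32. Of 6 measured red cell markers, 3 were lower and 1 higher in DdcPATΔ than in DdcMATΔ hearts without overlap. Of all probes, 2.59% separated these groups with DdcPATΔ lower and 2.15% with DdcPATΔ higher. The embryonic globin genes were the lower ones in DdcPATΔ, with Hbb-y at 15.30 in the DdcΔΔ heart, 12.53 to 14.02 in DdcPATΔ, 14.10 to 14.90 in DdcMATΔ and 12.69 to 15.08 in DdcWT hearts, and Hba-x and Hbb-bh1 in the same order between DdcPATΔ and DdcMATΔ. Alas2, for the first enzyme of haem synthesis in red cells, was 13.50 to 13.97 in DdcPATΔ and 11.38 to 12.53 in DdcMATΔ hearts. The mean of the 6 overlapped, at 11.87 to 12.77 in DdcPATΔ and 12.25 to 12.73 in DdcMATΔ hearts. Of 9 markers of lung epithelium, 7 were under a mean of 7, whereas Id2 and Sox9 were bright, with means of 11.32 and 12.30. In tissue RNA of this kind, fewer cells of a type and less RNA per cell cannot be told apart.

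A principal component analysis of the 16120 brighter probes (mean of 7 or more) put 27.05% of the variance on its first axis. The score on that axis was below 0 in the DdcΔΔ heart, DdcPATΔ replicates 1 and 2, DdcMATΔ replicates 3 and 4 and DdcWT replicate 1, and above 0 in the other 6 hearts. Without the layout, it cannot be told whether this split follows the chips. Array medians were 5.61 to 5.62 and the lowest value was 4.58, so a probe close to these numbers held little beyond background. A mean of 7 over the 12 hearts was taken, after the values had been seen, as the bound above which a probe was read as a signal. Of the 22 probes, 9 lay above it. They were both probes of Fgf9 and of Igf1 among the ligands, and 1 probe of Fgfr2, 1 of Erbb2 and 3 of Igf1r among the receptors. For Fgf16, Nrg1, Fgfr1, Erbb4 and Mycn no probe reached 7. Thus 2 of 4 ligands and 3 of 5 receptors had a readable probe. Signals of different probes are not set against each other, since probes differ in their binding.

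**Figure D1:**
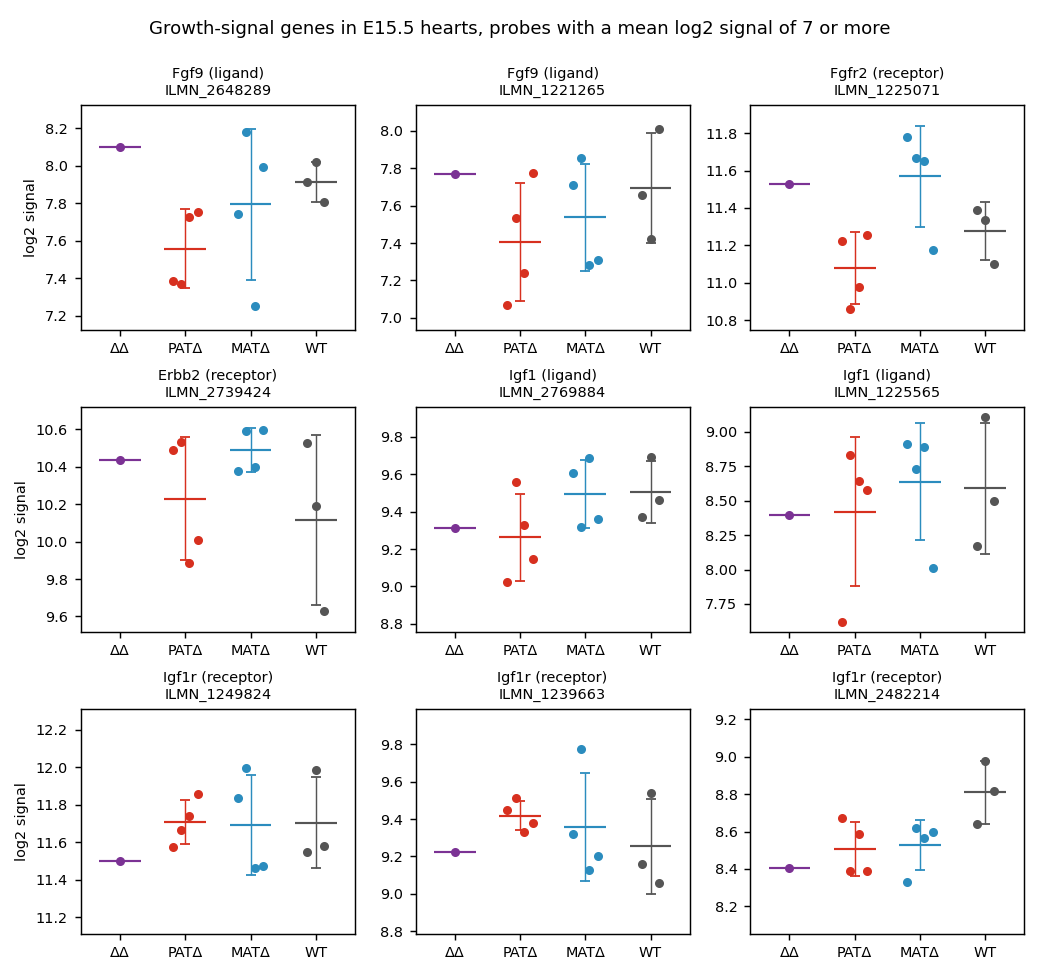
Log2 signal of the 9 member probes with a mean of 7 or more, 1 point per heart, with genotypes on the x axis (ΔΔ, PATΔ, MATΔ and WT; n = 1, 4, 4 and 3). Horizontal lines are means and error bars the SD, and each panel has its own y axis. The DdcPATΔ points of Fgfr2 lie between 10.86 and 11.26, and 3 of the 4 DdcMATΔ points lie above 11.6.

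Fgf9, the epicardial and endocardial growth factor for cardiomyocytes, was read by 2 probes. Probe ILMN_2648289 gave 8.10 in the DdcΔΔ heart, 7.38, 7.37, 7.73 and 7.75 in DdcPATΔ hearts, 7.74, 8.18, 7.25 and 7.996 in DdcMATΔ hearts and 7.92, 8.02 and 7.81 in DdcWT hearts. All 4 DdcPATΔ hearts lay below all 3 DdcWT hearts, and the DdcMATΔ hearts spanned both. Probe ILMN_1221265 gave 7.77 in the DdcΔΔ heart, 7.07, 7.54, 7.24 and 7.78 in DdcPATΔ, 7.71, 7.85, 7.28 and 7.31 in DdcMATΔ and 7.66, 7.42 and 8.01 in DdcWT hearts. On this probe the groups overlapped in every comparison of DdcPATΔ. The heart with no intact allele was not low on either probe.

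Igf1, which encodes insulin-like growth factor 1, had a range within each replicated genotype that was wider than the distances between its genotype means. Probe ILMN_2769884 gave 9.31 in the DdcΔΔ heart, 9.03, 9.56, 9.33 and 9.15 in DdcPATΔ, 9.61, 9.32, 9.69 and 9.36 in DdcMATΔ and 9.37, 9.69 and 9.46 in DdcWT hearts. Probe ILMN_1225565 gave 8.40 in the DdcΔΔ heart, 7.62, 8.83, 8.65 and 8.57 in DdcPATΔ, 8.91, 8.73, 8.89 and 8.01 in DdcMATΔ and 8.17, 9.10 and 8.50 in DdcWT hearts. The lowest value on both probes was that of DdcPATΔ replicate 1, and the replicated groups overlapped.

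Fgfr2 encodes a receptor tyrosine kinase for FGF ligands. Its bright probe ILMN_1225071 gave 11.53 in the DdcΔΔ heart, 11.22, 10.86, 10.98 and 11.26 in DdcPATΔ hearts, 11.78, 11.67, 11.65 and 11.17 in DdcMATΔ hearts and 11.39, 11.34 and 11.10 in DdcWT hearts. DdcMATΔ replicate 4 fell within the DdcPATΔ range and the other 3 DdcMATΔ hearts lay above every other heart. A second probe of the same transcript accession, ILMN_2609887, was dim, with 6.48 in the DdcΔΔ heart, 6.34, 6.20, 6.22 and 6.21 in DdcPATΔ, 6.42, 6.89, 6.92 and 6.94 in DdcMATΔ and 6.25, 6.60 and 6.06 in DdcWT hearts. Here the 4 DdcPATΔ hearts lay below the 4 DdcMATΔ hearts, while the DdcWT hearts spread over both ranges.

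Erbb2, the co-receptor that passes the neuregulin signal on, gave 10.43 in the DdcΔΔ heart, 10.49, 10.53, 9.89 and 10.01 in DdcPATΔ, 10.38, 10.59, 10.40 and 10.59 in DdcMATΔ and 10.53, 10.19 and 9.63 in DdcWT hearts. The DdcMATΔ hearts lay close together, and the DdcPATΔ and DdcWT hearts each held high and low values.

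Igf1r, the receptor for both insulin-like growth factors, had 3 bright probes. Probe ILMN_1249824 gave 11.50 in the DdcΔΔ heart, 11.58, 11.66, 11.74 and 11.86 in DdcPATΔ, 11.84, 11.99, 11.46 and 11.48 in DdcMATΔ and 11.55, 11.99 and 11.58 in DdcWT hearts. Probe ILMN_1239663 gave 9.22 in the DdcΔΔ heart, 9.45, 9.51, 9.33 and 9.38 in DdcPATΔ, 9.32, 9.77, 9.13 and 9.20 in DdcMATΔ and 9.16, 9.54 and 9.06 in DdcWT hearts. Neither separated any 2 of the replicated genotypes. Probe ILMN_2482214, which has no transcript accession in the annotation, gave 8.40 in the DdcΔΔ heart, 8.67, 8.39, 8.59 and 8.39 in DdcPATΔ, 8.33, 8.62, 8.57 and 8.60 in DdcMATΔ and 8.64, 8.98 and 8.81 in DdcWT hearts. On that probe the DdcWT hearts were the high ones, above all 4 DdcMATΔ hearts and above 3 of the 4 DdcPATΔ hearts. The probes of Igf1r therefore did not order the genotypes in the same way.

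The other 13 member probes lay between 4.66 and 6.94 in all hearts. Of these, 7 were below the lowest array median in every heart, among them the only probe of Mycn (4.76 to 4.92) and both probes of Erbb4, the receptor that binds neuregulin (4.75 to 5.22). The 3 probes of Nrg1, the neuregulin gene, lay between 4.71 and 6.37, and the 2 of Fgfr1 between 4.66 and 6.57. A value this low on an array limits what can be read and does not show that the gene was silent. The dim probe with the widest range was that of Fgf16, an X-linked FGF ligand expressed in the heart. It gave 4.98 in the DdcΔΔ heart, 5.69, 5.28, 6.88 and 6.37 in DdcPATΔ, 4.80, 5.39, 5.94 and 5.42 in DdcMATΔ and 5.02, 6.71 and 6.80 in DdcWT hearts. High values were found in 2 DdcPATΔ and 2 DdcWT hearts. The range of Fgf16 within each of these genotypes was wider than the distances between genotype means.

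**Figure D2:**
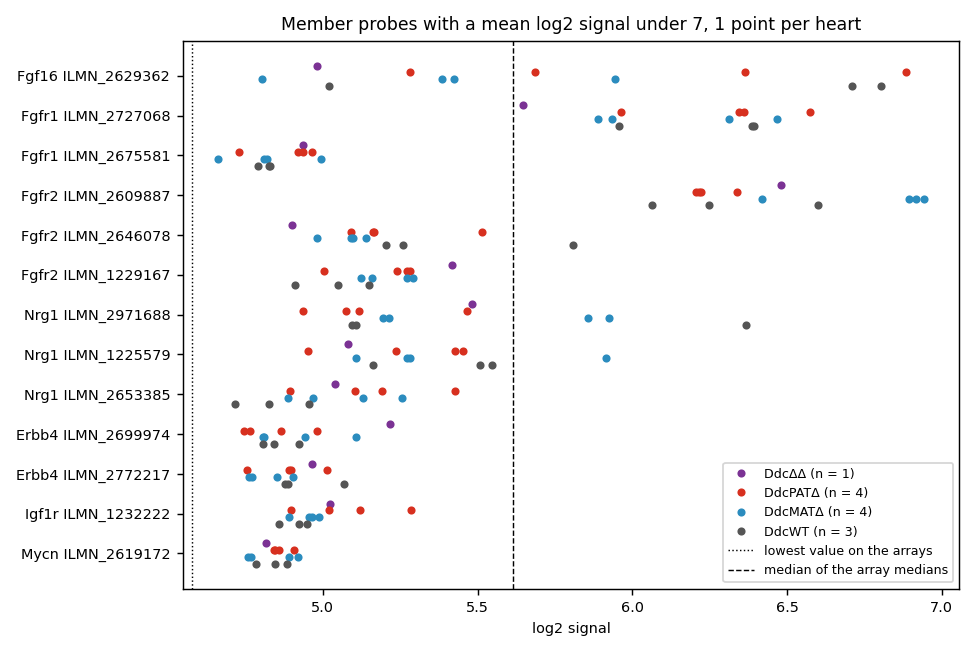
Log2 signal (x axis) of the 13 member probes with a mean under 7 (y axis), 1 point per heart, coloured by genotype. The dotted line is the lowest value on the arrays (4.58) and the dashed line the median of the array medians. Fgf16 spreads from 4.80 to 6.88, while Mycn and Erbb4 stay near the lowest value.

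The comparison of DdcPATΔ with DdcMATΔ asks what loss of the expressed allele did in hearts that all carried 1 mutated copy. No member probe passed an adjusted p of 0.05 in limma, 0 of 22, with 0.00663% of all 45267 probes called. At an unadjusted p under 0.05 there were 2, both lower in DdcPATΔ and both of Fgfr2, where 7.12% of all probes passed. On ILMN_1225071 the mean was 11.08 ± 0.19 in DdcPATΔ and 11.57 ± 0.27 in DdcMATΔ hearts (SD, n = 4 each), a difference of -0.49 (SE 0.15, 95% interval -0.81 to -0.17), or 71.3% of the DdcMATΔ signal. The limma p was 0.00644, the adjusted p 0.492, and the exact two-sided permutation p 0.0857. On the dim ILMN_2609887 the means were 6.24 ± 0.06 and 6.79 ± 0.25, a difference of -0.55 (SE 0.14, 95% interval -0.86 to -0.24). Its adjusted p in limma was 0.448, and the exact permutation p was 0.0286, the smallest that 4 hearts against 4 allow. Both probes also met the criterion used with these arrays, an unadjusted p under 0.01 with a log2 difference over 0.4, which 1.39% of all probes met. The second probe was the only member probe whose 2 groups did not overlap, with DdcPATΔ lower, as they were at 2.59% of all probes. These 2 probes share 1 transcript accession and are not independent measures. Another probe with that accession, ILMN_2646078, differed by 0.16 in the other direction, and ILMN_1229167 by -0.01, both near background.

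At Fgfr2 the DdcWT mean lay between those of the other replicated groups. DdcPATΔ minus DdcWT was -0.20 (95% interval -0.54 to 0.15) on the bright probe and -0.06 (-0.40 to 0.28) on the dim one, and DdcMATΔ minus DdcWT was 0.29 (-0.05 to 0.64) and 0.49 (0.15 to 0.83). The single DdcΔΔ heart, which like the DdcPATΔ hearts had no intact paternal allele, differed from DdcWT by 0.25 and 0.18 and lay within the DdcMATΔ range on both probes. The mean of 9 measured epicardial markers was 7.68 to 8.29 in DdcPATΔ, 8.32 to 8.40 in DdcMATΔ and 8.14 to 8.45 in DdcWT hearts. Of the 9 markers, 1 was under 7. Tcf21, Upk1b, Upk3b, Lrrn4 and Krt19 were lower in DdcPATΔ than in DdcMATΔ hearts, with overlap at Krt19. DdcPATΔ hearts lay below all DdcMATΔ hearts at 2.59% of all probes. Tbx18 (8.21 to 9.98 against 8.45 to 9.50), Aldh1a2 (6.97 to 7.59 against 6.87 to 7.27) and Msln overlapped and were not lower. The DdcWT mean of 8.14, in replicate 2, held a Tbx18 value of 4.78. With the epicardial mean as a covariate the bright Fgfr2 probe differed by -0.52 between DdcPATΔ and DdcMATΔ. That mean did not overlap between these 2 groups, so in this fit genotype and epicardial signal cannot be told apart. With the mean of the liver markers as a covariate the probe differed by -0.47, and with Xist by -0.51. The embryonic globin genes and Alas2 also separated these 2 groups, and their part in the difference at Fgfr2 was not tested.

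For the ligands, all 4 bright probes were lower in DdcPATΔ than in DdcMATΔ, with differences of -0.24 to -0.13, and none passed either threshold. The 5 bright receptor probes were divided, with 2 higher and 3 lower and a median of -0.02. Over the 9 bright probes the median difference was -0.22, and over all 16120 probes with a mean of 7 or more it was -0.01. Several of these probes belong to 1 gene, so the count of directions is smaller in genes than in probes. The interval for Erbb2 was -0.70 to 0.18 and for the brightest Igf1r probe -0.30 to 0.34, which leaves room for differences in either direction.

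**Figure D3:**
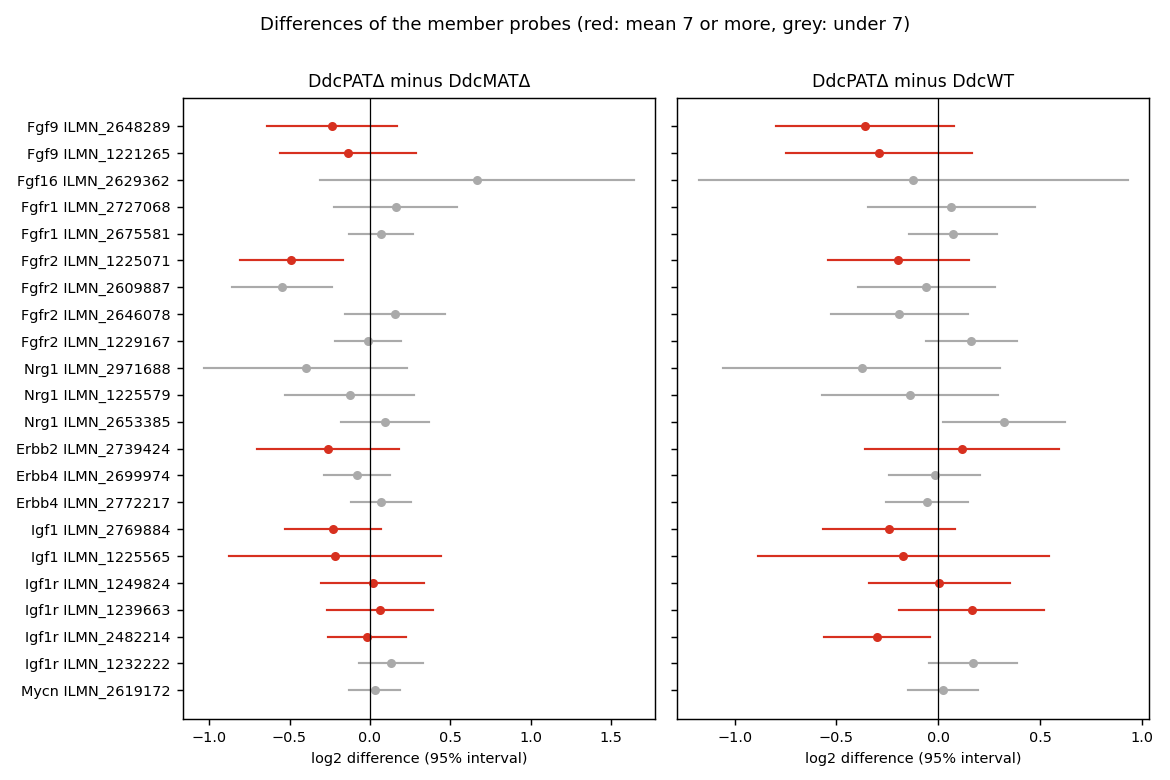
Log2 differences (x axis) of all 22 member probes (y axis), DdcPATΔ minus DdcMATΔ on the left and DdcPATΔ minus DdcWT on the right, with limma's 95% intervals. Red marks probes with a mean of 7 or more. On the left 2 Fgfr2 probes have intervals below 0, at -0.49 and -0.55, and on the right both lie nearer to 0.

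Against wild type, DdcPATΔ hearts also gave 0 of 22 member probes at an adjusted p of 0.05 in limma (0.00663% of all probes). At an unadjusted p under 0.05 there were 2, where 3.93% of all probes passed. One was the unannotated Igf1r probe ILMN_2482214, at -0.30 (SE 0.12, adjusted p = 0.9999 in limma), and the other the dim Nrg1 probe ILMN_2653385, at 0.32. The remaining bright Igf1r probes differed by 0.005 and 0.16. The 4 ligand probes were again all lower in DdcPATΔ. Fgf9 differed by -0.36 (SE 0.20, 95% interval -0.80 to 0.08) on ILMN_2648289 and by -0.29 on ILMN_1221265, and Igf1 by -0.24 and -0.17. The first Fgf9 probe was the 1 member probe whose groups did not overlap with DdcPATΔ lower, against 2.48% of all probes, and its exact permutation p was 0.0857. With the mean of the liver markers as a covariate the difference on ILMN_2648289 was -0.12. With that of the epicardial markers it was -0.55, and with Xist -0.19. On ILMN_1221265 the differences were -0.20, -0.07 and -0.04 in the same order, so the 2 Fgf9 probes moved in opposite directions with the epicardial covariate. For the X-linked Fgf16 the difference was -0.12, and -0.45 with Xist as a covariate, and against DdcMATΔ it was 0.67, and 0.47 with Xist. The 2 comparisons share the DdcPATΔ hearts, so the second is no independent repeat of the first.

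DdcMATΔ hearts, which keep the expressed allele, were set against DdcWT to show how far 2 groups with Ddc differ. There were 0 of 22 member probes at an adjusted p of 0.05, as for all probes (0%). At an unadjusted p under 0.05 limma gave 3 (4.88% of all probes), the dim Fgfr2 probes ILMN_2609887 at 0.49 and ILMN_2646078 at -0.35, and Igf1r ILMN_2482214 at -0.28. The last 2 were the probes whose groups did not overlap with DdcMATΔ lower, against 2.42% of all probes. Igf1r ILMN_2482214 was thus lower than in DdcWT in DdcPATΔ and in DdcMATΔ hearts alike, at -0.30 and -0.28, both against the same 3 DdcWT hearts, and the difference between DdcPATΔ and DdcMATΔ was -0.02 (95% interval -0.26 to 0.22).

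The DdcΔΔ heart had no replicate, and limma assumed that it varied like the other groups. No member probe passed an adjusted p of 0.05 against DdcWT (0.0729% of all probes), and 4 passed an unadjusted p of 0.05 (4.91% of all probes), of which only Igf1r ILMN_2482214, at -0.41, was bright. The exact test on 1 heart against 3 cannot go below 0.25. With the 5 DdcΔΔ and DdcPATΔ hearts together against the 7 DdcMATΔ and DdcWT hearts, 0 member probes passed the adjusted threshold (0.00884% of all probes). Igf1 ILMN_2769884 alone passed the unadjusted one (5.46% of all probes), at -0.22 (95% interval -0.45 to -0.0004), with an adjusted p of 0.916 in limma and an exact permutation p of 0.0556. Fgfr2 ILMN_1225071 differed by -0.27 (95% interval -0.58 to 0.04).

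Around these members, 12 lists held 127 other genes of the FGF, ERBB, insulin-like growth factor and MYC pathways and of their upstream inputs. Of these, 110 had a probe and 63 had one with a mean of 7 or more. None passed an adjusted p of 0.05 in limma in the 4 comparisons made for them. Between DdcPATΔ and DdcMATΔ, 15 of the 63 (23.8%) had an unadjusted p under 0.05 in limma, 7 higher and 8 lower, while 11.0% of all probes with a mean of 7 or more did. Between DdcPATΔ and DdcWT it was 2 of the 63 genes (3.17%), against 3.46% of those probes. Between DdcMATΔ and DdcWT it was 6 (9.52%) against 5.35%, and between the combined groups 7 (11.1%) against 6.73%. The median over the 63 genes was -0.02 between DdcPATΔ and DdcMATΔ and -0.04 between DdcPATΔ and DdcWT. The lists were chosen with earlier results of these data known, and each gene was read by its brightest probe. The shares of the 63 genes therefore cannot be read as an excess over those of all bright probes.

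In the FGF pathway the smallest p was that of Flrt3, a membrane protein that in Xenopus is induced by FGF signalling and binds FGF receptors. It gave 11.44 in the DdcΔΔ heart, 11.25, 10.87, 10.99 and 11.04 in DdcPATΔ hearts, 11.73, 11.76, 11.54 and 11.73 in DdcMATΔ hearts and 11.31, 11.09 and 11.05 in DdcWT hearts. DdcPATΔ hearts lay below all DdcMATΔ hearts and overlapped DdcWT, a difference of -0.65 (SE 0.10) from DdcMATΔ with an adjusted p of 0.192 in limma. The DdcMATΔ hearts all lay above the DdcWT hearts, with a difference of 0.54 (SE 0.11, adjusted p = 0.813 in limma), and so did the DdcΔΔ heart. Fgfrl1, an FGF receptor without a kinase domain, differed by -0.36 between DdcPATΔ and DdcMATΔ, also without overlap. Groups separated with DdcPATΔ lower at 2.59% of all probes. Fgfrl1 differed by -0.03 between DdcPATΔ and DdcWT and by 0.33 between DdcMATΔ and DdcWT. Of the 8 bright feedback and target genes of FGF signalling, 6 were lower and 2 higher in DdcPATΔ than in DdcMATΔ, and Flrt3 was the only one at an unadjusted p under 0.05. Among the other FGF ligands 4 of 20 were bright, with 3 higher and 1 lower in DdcPATΔ than in DdcMATΔ, and 0 reached that p.

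Of the insulin-like growth factor binding proteins, which hold the factors in the extracellular space, 5 of 9 measured list members were bright, and 4 of the 5 were lower in DdcPATΔ than in DdcMATΔ and also than in DdcWT. Igfbp3 gave 11.58 in the DdcΔΔ heart, 11.06, 10.93, 10.79 and 10.35 in DdcPATΔ, 11.24, 11.58, 11.53 and 11.49 in DdcMATΔ and 11.66, 11.69 and 10.67 in DdcWT hearts. DdcPATΔ hearts were below all DdcMATΔ hearts, as at 2.59% of all probes, with a difference of -0.68 (SE 0.23, adjusted p = 0.544 in limma). They were also below 2 of the 3 DdcWT hearts, with a difference of -0.56 (SE 0.24). Igfbp4 showed the same order at -0.26 against DdcMATΔ and -0.22 against DdcWT. Igfbp7, which binds insulin-like growth factors weakly, went the other way, at 0.60 against DdcMATΔ. The DdcΔΔ heart lay within or above the DdcMATΔ range for Igfbp3 and Igfbp4 and within it for Igfbp7.

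Insr, the gene of the insulin receptor, was 12.89 ± 0.12 in DdcPATΔ and 12.56 ± 0.13 in DdcMATΔ hearts (SD, n = 4 each), a difference of 0.33 (SE 0.10, adjusted p = 0.492 in limma) without overlap. Groups separated with DdcPATΔ higher at 2.15% of all probes. Insr differed by 0.13 between DdcPATΔ and DdcWT and by -0.20 between DdcMATΔ and DdcWT. Downstream of the insulin and IGF receptors are Pik3r1, the regulatory subunit of PI3-kinase, and Foxo3, a transcription factor that AKT holds back. Between DdcPATΔ and DdcMATΔ they differed by 0.34 and 0.47, both with overlap. Against DdcWT, Pik3r1 and Foxo3 differed by 0.25 and 0.24 in DdcPATΔ and by -0.08 and -0.22 in DdcMATΔ hearts. For the EGF family of ligands, Btc (betacellulin) differed by 0.67 and Egf by 0.65 between DdcPATΔ and DdcMATΔ, but by 0.12 and -0.19 between DdcPATΔ and DdcWT. In DdcMATΔ against DdcWT these 2 differed by -0.55 and -0.84.

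In the MYC network, where Mycn itself was not readable, Mxd1, a MAX partner that opposes MYC, differed by -1.25 (SE 0.51) between DdcPATΔ and DdcMATΔ. Mxd1 gave 9.06 in the DdcΔΔ heart and 8.94, 6.57, 6.68 and 6.74 in DdcPATΔ hearts. It gave 8.75, 7.68, 9.11 and 8.37 in DdcMATΔ and 7.92, 8.97 and 8.11 in DdcWT hearts. DdcPATΔ replicate 1 thus stood apart from its group, and the DdcΔΔ heart was not low. Mlx, another partner of the network, differed by 0.35 between DdcPATΔ and DdcMATΔ and by 0.30 between DdcPATΔ and DdcWT. Of the 10 bright MYC target and cell-cycle genes 9 were lower in DdcPATΔ than in DdcMATΔ, with 2 at an unadjusted p under 0.05, Ccnd3 (cyclin D3) at -0.29 and Nop56 (a nucleolar protein of ribosome assembly) at -0.29. Against DdcWT 7 of the 10 were lower in DdcPATΔ and none reached that p, with Ccnd3 at -0.13 and Nop56 at -0.007. In DdcMATΔ 9 of the 10 were higher than in DdcWT, with Ccnd3 at 0.16 and Nop56 at 0.28. Of these, 1 had an unadjusted p under 0.05 in limma, Nop56.

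**Figure D4:**
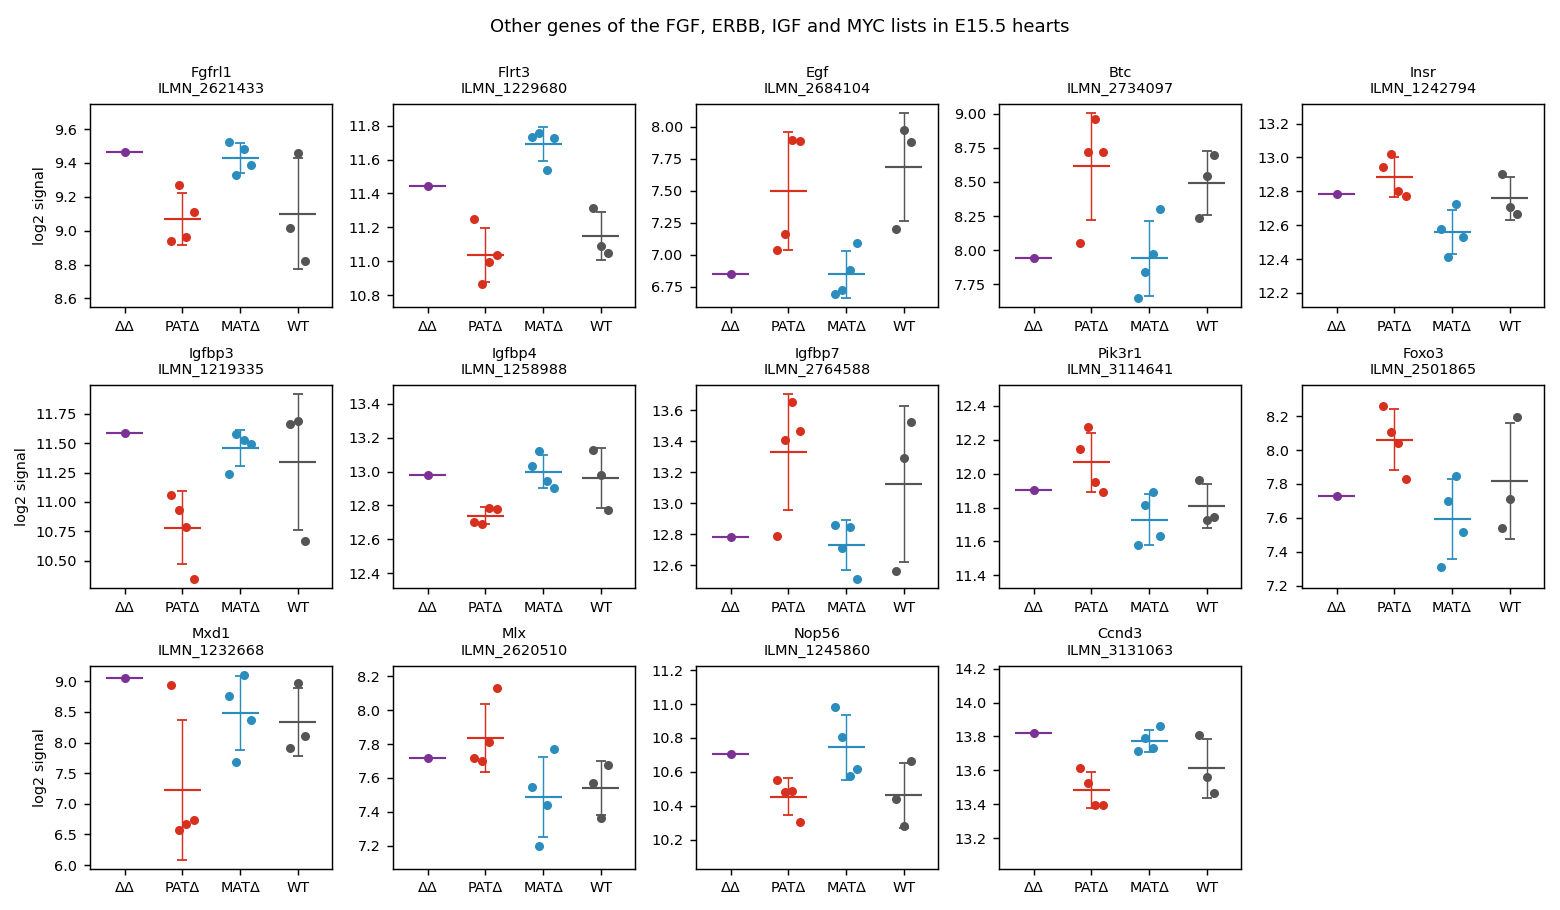
Log2 signal of 14 genes of the pathway lists by genotype, 1 point per heart, with means and SD (n = 1, 4, 4 and 3), each panel with its own y axis. They are the genes, up to 3 of a list, with the smallest unadjusted p under 0.05 in DdcPATΔ against DdcMATΔ or DdcWT. In the panel of Flrt3 the DdcMATΔ points lie between 11.54 and 11.76, above every other heart.

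Across all 12 hearts, the members with the widest range, each gene taken by its brightest probe of mean 7 or more, were Erbb2 (0.97), Fgf9 (0.93) and Fgfr2 (0.92), while the second probe of Igf1, ILMN_1225565, ranged over 1.48. The genes whose values followed Fgfr2 most closely were Ptx3 (Pearson r = 0.95, Spearman rho = 0.94), Shisa2 (0.94 and 0.94) and Sertad4 (0.93 and 0.92), out of 13998 named probes searched. Adgra3 (0.94 and 0.92), Thoc6 (0.94 and 0.85) and Ddx39b (0.93 and 0.87) followed Erbb2, and Srpk1 (0.83 and 0.78), Prpf3 (0.83 and 0.74) and Ttc37 (0.83 and 0.61) followed Fgf9. These are descriptions over 12 hearts that share arrays and normalization, and the closest of many probes is high by selection.

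Erbb2 and Fgf16 divided the hearts in a way that cut across genotype, which was noticed after the values had been seen. The 4 hearts with the highest Fgf16, DdcPATΔ replicates 3 and 4 and DdcWT replicates 2 and 3, had 6.37 to 6.88 on its probe, and the other 8 had 4.80 to 5.94. The same 4 hearts had the lowest Erbb2, 9.63 to 10.19, against 10.38 to 10.59 in the other 8. All 4 had a score above 0 on the first principal component, 10.8 to 24.8, as did DdcMATΔ replicates 1 and 2 (16.8 and 15.6), whose Fgf16 was 4.80 and 5.39. The 4 hearts also had the highest Egf, 7.88 to 7.98, against 6.69 to 7.204. Each of these genotypes thus held hearts at both ends of the order, and no test was made of hearts chosen by their values.

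**Figure D5:**
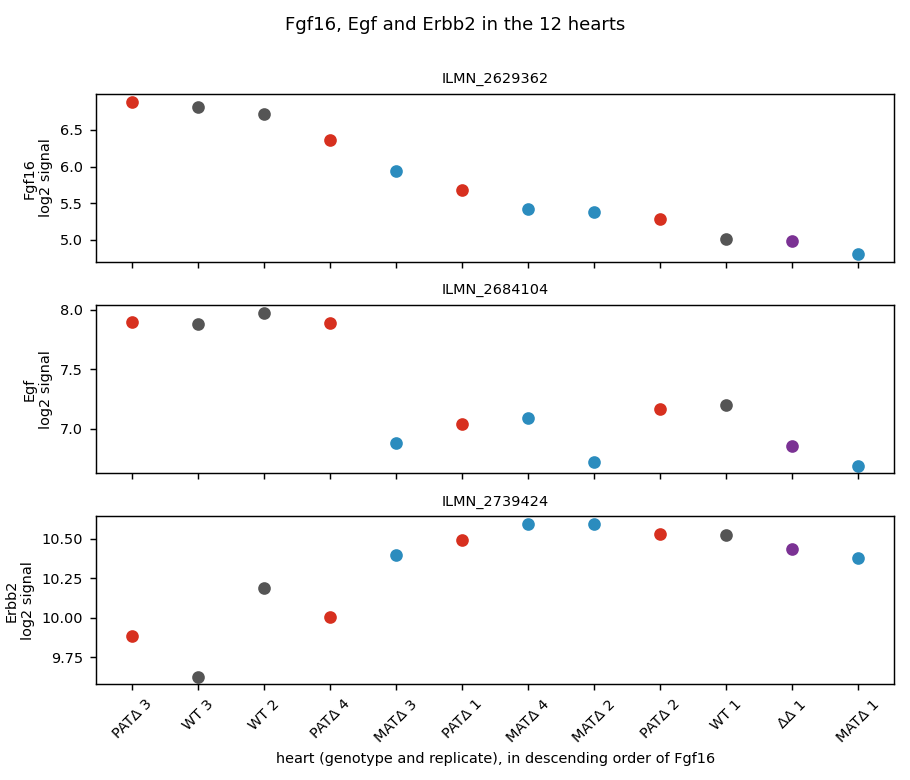
Log2 signal (y axes) of Fgf16, Egf and Erbb2 in the 12 hearts, ordered by Fgf16 and coloured by genotype. The first 4 hearts, of DdcPATΔ and DdcWT, lie at 6.37 or above for Fgf16 and at 10.19 or below for Erbb2.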

How the data were processed

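Expression was measured in 12 hearts with Illumina WG-6 arrays. The authors deposited log2 signals of 45267 probes, after background correction with neqc and normalization between arrays. GenomeStudio and limma stand, without versions, in the submitters' processing notes. The methods text names Affymetrix, whereas the table legend and probe names are Illumina's. A scanner table of 24 columns (12 of signal, 12 of detection p) was not used, since its columns name no heart.

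Groups came from the sample labels. In R 4.3.3, limma 3.58.1 (lmFit, eBayes) was fitted to all probes, with genotype at 4 levels over 12 arrays, or 2 groups for the combined hearts. Adjustment was by Benjamini-Hochberg over all 45267 probes, with 0.05 as the threshold. Exact two-sided permutation tests were added for member probes. The fitting step was tested on simulated data for which the true differences were known. The hearts were run on 2 array chips of 6 lanes. Which hearts shared a chip or a litter could not be told, so no batch could be fitted. The labels number the replicates, and the legend of the paper's table calls them biological replicates. Precision is limited by how many arrays there are.

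Gene symbols came from the platform annotation, updated against RefSeq: 34875 had 1 symbol, 18 several and 10374 none. A probe shared by Fgfr1 and another symbol was left out. The members and lists were chosen with earlier results of these data known. The genes named are all members, Ddc, up to 3 genes of a list with the smallest unadjusted p under 0.05 in DdcPATΔ against DdcMATΔ or DdcWT (brightest probe, mean of 7 or more), and the 3 genes most like each of the 3 widest-ranging members. Xist and cell type markers were named as checks, and Plin5 and Myom2 after their values had been seen. Alternatives were array weights, Xist as a covariate, a replicate block, a trended and robust variance, only the groups compared, repeated quantile normalization, 100 added to linear signals, bright probes only, the 4-level fit for the combined hearts and each heart left out. The marker covariates, the bound of 7 on readable probes in the text and the ordering of hearts by Fgf16 were chosen after seeing the data.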

Additional observations from a re-analysis of the deposited data

Results flagged for a closer look

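In groups of 4 hearts, 44 sets of values of member probes were examined for a heart far from the other 3, by Dixon's ratio, and 3 were past its critical value. Chance flags about 1 in 20 such sets. All 3 were dim probes of Fgfr2. On ILMN_2609887, DdcPATΔ replicate 1 had 6.34, while the other DdcPATΔ hearts lay between 6.20 and 6.22, and DdcMATΔ replicate 1 had 6.42, while the other DdcMATΔ hearts lay between 6.89 and 6.94. Without DdcMATΔ replicate 1 the difference between DdcPATΔ and DdcMATΔ on that probe was -0.67, and without DdcPATΔ replicate 1 it was -0.58. On ILMN_1229167, DdcPATΔ replicate 1 had 5.004 and the other DdcPATΔ hearts 5.24 to 5.28, values below the array medians.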

How the results depend on the processing

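Over 23 alternatives, all 109 counts of member probes at an adjusted p under 0.05 in limma were 0, and the smallest adjusted p was 0.247. This covers each heart left out in turn, where every count stayed at 0. Of 2333 differences recomputed, 2308 moved by less than 1 SD within groups and 25 by more, most of them with 100 added to the linear signals, which shrinks dim probes, or with a marker covariate. Fgfr2 between DdcPATΔ and DdcMATΔ kept its direction and an unadjusted p under 0.05 in all 22 alternatives of ILMN_1225071 (-0.62 to -0.42) and all 21 of ILMN_2609887 (-0.68 to -0.27, the last with 100 added). Igf1r ILMN_2482214 against DdcWT kept its direction in all 22 alternatives. It kept an unadjusted p under 0.05 in 15 for DdcPATΔ and in 15 for DdcMATΔ. The alternatives refit the same hearts, and these probes had been singled out by their unadjusted p. That they kept it is therefore no independent repeat. Fgf16 between DdcPATΔ and DdcMATΔ was 0.67, and -0.32 with the epicardial covariate, which did not overlap between these 2 groups.

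The deviations of same-numbered hearts had correlations of -0.35 to 0.54 (10 pairs, median -0.15). Those of hearts of different number had -0.40 to 0.35 (30 pairs, median 0.10). Same-numbered hearts thus did not deviate together as a set. Whether single hearts shared a litter or a chip cannot be told from so few pairs. With the replicate number as a block 0 member probes were called, and the 2 Fgfr2 probes had an adjusted p of 0.545 and 0.481. What limits these results is the number of hearts, 1 in DdcΔΔ, and signals near background for 13 of 22 probes.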

Other observations

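Other genes followed the order of hearts described for Fgf16, Erbb2 and Egf, and were picked after their values had been seen. Plin5, which coats lipid droplets in oxidative muscle, gave 8.43 to 8.88 in the 4 hearts with the highest Fgf16, against 5.59 to 7.85 in the other 8. Myom2, a protein of the sarcomere's M-band, gave 12.64 to 13.02 in those 4, against 10.09 to 11.93. No test was made of these values.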
